A study of Homo sapiens with 6 samples.

Results

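The comparison described here sets cells under slow fluid flow against cells at rest, and it covers 4 of the 6 libraries of the series, chosen by their labelled flow. Every library came from MDA-MB-231, an established human breast cancer line of mesenchymal character, in its bone-homing variant, kept in a 3-dimensional loading model. The 2 static libraries had no flow (0 mL/min) and the 2 low flow libraries had 1 mL/min, and all 4 column names give 1 lane. A further 2 libraries at 15 mL/min, named in another lane, entered the fit only to help estimate the spread and are not a group of this comparison. The labels state neither how long the flow lasted nor that replicates came from separate cultures, so each p-value rests on the spread among these libraries, which may be technical.

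Moving interstitial fluid pulls on the surface sugar coat, the matrix contacts and the ion channels of a cell. Cells are known to answer shear with calcium entry, prostaglandin and growth factor genes, TGF-beta family signals and changes in matrix and cell division genes. In bone, which is loaded and unloaded with every step, such fluid movement reaches tumour cells that have spread there.

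The deposited values were raw counts per gene, and levels are given as CPM, the usual counts-per-library-size scale, with the library factors of the fit. The static libraries held 17822642 and 23544307 counts and the low flow libraries 45174328 and 47067620, so depth differed between the groups, and low levels rest on fewer counts in static. The mitochondrial share of counts ran from 6.61% to 10.4% and did not separate the groups. The labels call the cells endothelial cancer cells. Of 12 endothelial markers CLDN5 had 0 counts and CDH5 had 2 counts in the 4 libraries together, and VWF stood at 0.154 to 0.220 CPM, while TIE1, ESAM and ROBO4 were detected at 24.3 to 49.4 CPM. By contrast, VIM stood at 3615 to 4540 CPM and CD44, EGFR and AXL were also high. The summed endothelial markers ranged from 115 to 144 CPM in static and from 140 to 152 CPM under low flow. PECAM1, an adhesion molecule of endothelial and some tumour cells, was the 1 endothelial marker that rose, from 8.32 and 8.56 CPM to 14.1 and 13.4 CPM (adjusted p = 0.00778, edgeR quasi-likelihood test). The leukocyte markers PTPRC and CD3E had 5 and 1 counts in all.

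With the edgeR quasi-likelihood test and an adjusted p below 0.05, 1394 of 20676 genes tested passed (6.74%), 672 of them higher under low flow (3.25%) and 722 lower (3.49%). Most were small shifts of well-expressed genes. The median fold change was 1.46 among the higher and 1.40 among the lower genes, and 389 of the higher and 493 of the lower genes moved less than 1.5-fold. At least 2-fold changes were seen in 77 higher genes (0.372%) and 93 lower genes (0.45%). All 672 and 722 had groups that did not overlap, which holds for 27.1% and 26.3% of all genes tested in the same directions. Of 2192 genes at 100 CPM or more, 117 rose and 156 fell, and of 5150 genes under 1 CPM, 18 rose and 35 fell. Beside these, the median absolute log2 difference between the 2 static libraries was 0.19, between the 2 low flow libraries 0.16 and between the group means 0.21. The difference of static replicate 2 minus 1 had a Spearman correlation of -0.30 with GC content. For low flow replicate 2 minus 1 it was 0.062, and for the difference of the group means 0.056.

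**Figure D1:**
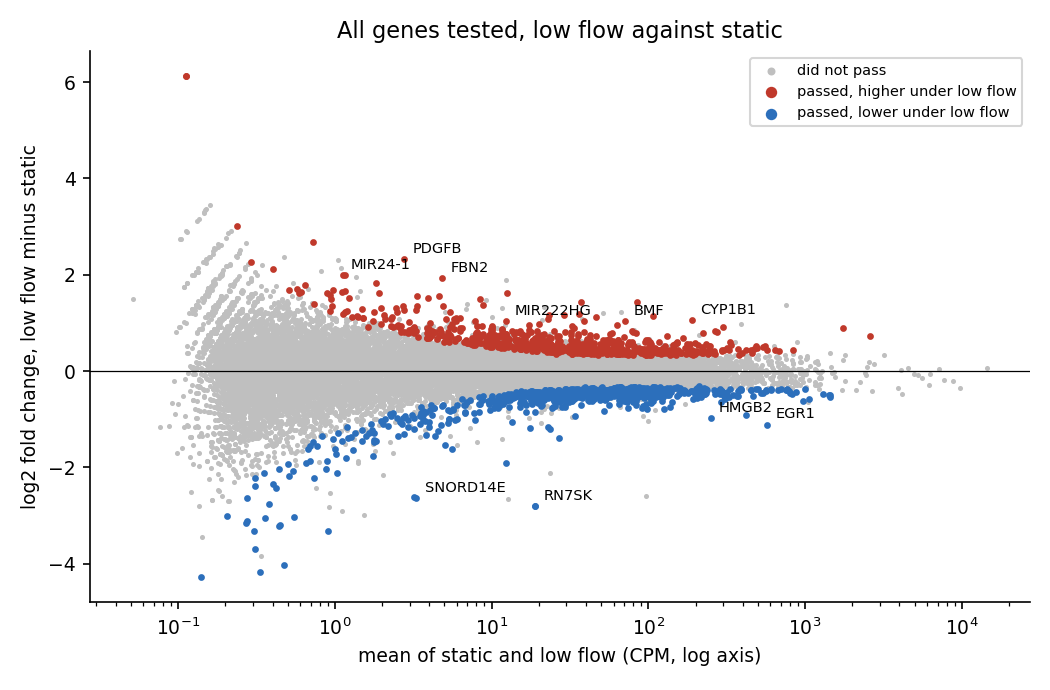
Each point is 1 of 20676 genes, with the mean level of the 4 libraries in CPM on a log axis and the log2 fold change, low flow minus static, on the vertical axis. The 672 genes that passed as higher are red and the 722 that passed as lower are blue, and most of them lie within 1.5-fold of no change.

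The low flow libraries did not lie equally far from static. Of the 672 higher genes 577 (85.9%) lay farther from the static mean in low flow replicate 2 than in replicate 1, with median log2 distances of 0.63 and 0.43. Among the 722 lower genes it was 659 (91.3%), with 0.60 and 0.40. These genes were chosen by the test on both libraries, so the shares are a description. The number that passed fell to 151 higher and 106 lower when low flow replicate 2 was left out, to 39 and 46 when static replicate 2 was, and to 310 and 317 when static replicate 1 was.

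A core of 59 genes, 26 higher and 33 lower, passed in the same direction in the fit above and in all 15 alternative settings, each single library left out included. The core was picked for its stability, and its genes are named here after their values were seen. BMF, a BH3-only protein that promotes cell death and is known to be held at the cytoskeleton, stood at 48.3 and 44.8 CPM in static and 93.2 and 98.5 CPM under low flow. Both low flow libraries lay near 2 times the static level (log2 fold change 1.04, SE 0.10, adjusted p = 3.71e-05, edgeR). RIPK4, a kinase of epithelial differentiation, had 21.8 and 22.8 CPM in static against 46.8 and 54.0 CPM, well apart in both libraries (log2 fold change 1.18, SE 0.11, adjusted p = 3.71e-05). F2RL1, the protease-activated receptor PAR2, rose from 171 and 154 CPM to 272 and 289 CPM (adjusted p = 0.000285). SHISA2, an endoplasmic reticulum protein that holds back Wnt and FGF receptors, rose from 56.9 CPM in both static libraries to 98.3 and 104 CPM (adjusted p = 0.000132).

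Several other core genes rose. ST3GAL5, the synthase of the ganglioside GM3, rose 1.93-fold, and LFNG, a glycosyltransferase that modifies Notch receptors, rose 2.10-fold. TENM1, a teneurin of cell contacts, and ITGA1, a collagen-binding integrin chain, rose 1.85-fold and 1.77-fold. WEE1, the kinase that restrains entry into mitosis, rose from 41.0 and 44.9 CPM to 80.5 and 67.7 CPM (adjusted p = 0.000578, edgeR), opposite to most mitotic genes below. TRIB1, a pseudokinase scaffold, rose 1.62-fold.

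Among the core genes were CYP1B1 and TIPARP, both known targets of the aryl hydrocarbon receptor. CYP1B1 had 108 and 139 CPM in static and 283 and 231 CPM under low flow (log2 fold change 1.06, adjusted p = 0.00065, edgeR). TIPARP had 175 and 206 CPM against 344 and 332 CPM (log2 fold change 0.83, adjusted p = 0.000285). The other common targets of that receptor that were looked at did not pass. CYP1A1 had a log2 fold change of 0.38 (adjusted p = 0.0589) and AHRR one of -0.079 (adjusted p = 0.703), and NQO1, which is also a target of NRF2, had -0.35 (adjusted p = 0.0589).

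Of the lower core genes, HMGB2, a chromatin protein abundant in dividing cells, stood at 329 and 332 CPM in static and fell to 185 and 153 CPM (log2 fold change -0.97, SE 0.10, adjusted p = 5.31e-05, edgeR). The static libraries were nearly alike and both low flow libraries lay far below them. TBCA, a tubulin-folding cofactor, fell 1.72-fold, RANBP1, a regulator of nuclear transport and the spindle, 1.58-fold, and the transcription factor TFAP4 1.69-fold. The splicing genes SNRPF, SNRPA and PPIH fell 1.63-fold, 1.54-fold and 1.52-fold, the kinase PIM3 1.64-fold, and COX17, a copper carrier for cytochrome oxidase, 1.58-fold.

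**Figure D2:**
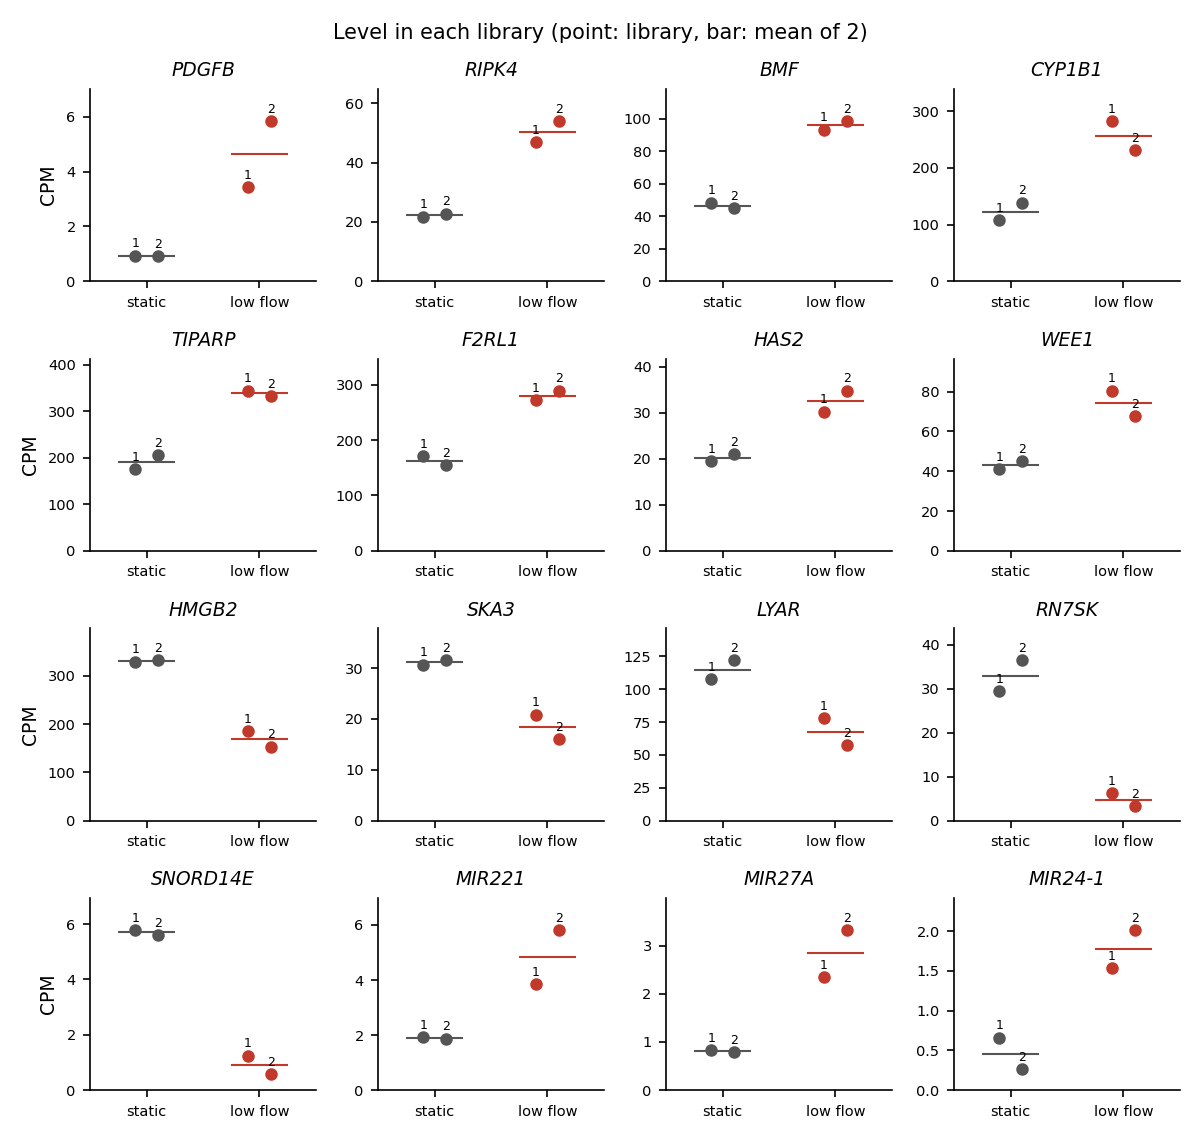
The level of 16 genes in CPM (vertical axes start at 0) is drawn for each library, numbered by replicate, with a bar at the mean of 2. BMF, RIPK4, HMGB2 and SNORD14E have static pairs that lie close together and low flow pairs far from them. Against the height of its own panel, the gap between the low flow libraries is wider in PDGFB and MIR221. As a fold, SNORD14E, at 1.25 and 0.582 CPM, differs more between them than either.

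MicroRNAs are cut from longer primary transcripts, and reads at a precursor gene in a poly(A) library come from such long transcripts, not from the mature microRNA. Of 300 precursor genes tested, 12 rose and 4 fell, and 4.0% higher is close to the 3.25% of all genes. The median log2 fold change of the class was 0.15 against 0.0074 over all genes. Among all genes under 1 CPM 0.35% were higher, and among those from 1 to 10 CPM 2.87%. No share matched for level was taken. Among the 12 were the neighbours MIR23A, MIR27A and MIR24-2 on chromosome 19, the neighbours MIR23B, MIR27B and MIR24-1 on chromosome 9, MIR221 on chromosome X and MIR21 on chromosome 17, all named after their values were seen. The mature strands are shown because the clusters on chromosomes 19 and 9 are copies of each other with the same seeds (bases 2 to 8, in capitals). The sequences are RefSeq's, on GRCh38.p14.
miR-23a-3p: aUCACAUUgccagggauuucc
miR-23b-3p: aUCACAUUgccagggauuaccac
miR-27a-3p: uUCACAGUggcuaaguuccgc
miR-27b-3p: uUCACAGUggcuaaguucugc
miR-24-3p: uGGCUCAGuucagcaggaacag
miR-221-3p: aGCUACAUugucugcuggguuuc
miR-21-5p: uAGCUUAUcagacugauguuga

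The seed UCACAUU is common to miR-23a and miR-23b, and UCACAGU to miR-27a and miR-27b, while miR-24-3p is 1 sequence made from both MIR24-1 and MIR24-2. MIR27A (19, 13836440 to 13836517, GENCODE 29 on GRCh38) had 15 and 18 counts in static and 107 and 160 under low flow. That is 0.827 and 0.782 CPM against 2.35 and 3.33 CPM (log2 fold change 1.82, SE 0.29, adjusted p = 0.00246, edgeR). Its neighbours MIR24-2 and MIR23A rose 3.08-fold and 2.49-fold. AC020916.1, an antisense RNA gene in GENCODE whose span holds all 3 on the same strand (13823880 to 13842928), had the smallest p of the comparison. It rose from 40.2 and 50.3 CPM to 134 and 113 CPM (2.72-fold, adjusted p = 1.21e-05) and was a core gene. In the other cluster MIR24-1 rose from 12 and 6 counts to 70 and 97 (4.0-fold, adjusted p = 0.0077), MIR27B 3.18-fold and MIR23B 2.98-fold. These levels were all under 4 CPM and rest on few static counts. AOPEP, the protein gene that spans the chromosome 9 cluster on the same strand, rose 1.49-fold, from 41.4 and 42.3 CPM to 60.8 and 64.2 CPM.

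MIR221 (X, 45746157 to 45746266) lies inside MIR222HG, the host transcript of miR-221 and miR-222, on the same strand. The host was a core gene: it stood at 8.32 and 7.91 CPM in static and 15.1 and 18.3 CPM under low flow (log2 fold change 1.04, adjusted p = 0.000631, edgeR). MIR221 had 1.93 and 1.87 CPM against 3.84 and 5.82 CPM (2.55-fold, adjusted p = 0.00487), and MIR222, with 5 and 13 static counts, did not pass (log2 fold change 0.99, adjusted p = 0.195). MIR21 (17, 59841266 to 59841337) lies inside VMP1, a gene of autophagy, on the same strand. MIR21 rose 3.97-fold, from 11 and 8 counts to 60 and 115, and VMP1 rose 1.43-fold, from 160 and 141 CPM to 197 and 234 CPM. A precursor and a host on the same strand can share reads, so these pairs are not independent measurements. Without static replicate 2 the calls of MIR27A, MIR24-2, MIR24-1, MIR23B, MIR27B, MIR221 and MIR21 ended. Without static replicate 1 those of MIR23A, MIR23B and MIR27B ended, and without low flow replicate 2 those of MIR23B, MIR27B and MIR21.

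Small nucleolar RNAs, which guide chemical changes of ribosomal RNA and carry no poly(A) tail, had 180 genes tested. Of these 9 fell and 1 rose, with a class median of -0.20, and 5.0% lower is close to the 3.49% of all genes. Among all genes under 1 CPM 0.68% were lower, and among those from 1 to 10 CPM 1.99%. Here too no share matched for level was taken. SNORD14E, within the span of HSPA8 on the same strand, had 105 and 129 counts in static and 57 and 28 counts in the deeper low flow libraries. Its level went from 5.79 and 5.61 CPM to 1.25 and 0.582 CPM (log2 fold change -2.64, SE 0.29, adjusted p = 0.000107, edgeR). SNORD50B went from 5.35 and 5.65 CPM to 1.25 and 0.54 CPM (log2 fold change -2.62, adjusted p = 0.000355). HSPA8 itself, the constitutive heat shock chaperone, had a log2 fold change of -0.23 and did not pass (adjusted p = 0.246). SNORD50B lies within the span of SNHG5 on the same strand. SNHG5 was a core gene that fell 1.56-fold, from 176 and 168 CPM to 113 and 107 CPM. SNORA33, SNORA21 and SNORA65 fell 2.31-fold, 2.09-fold and 3.29-fold, and SNORD45B, the 1 that rose, was 1.81-fold higher. RN7SK, the RNA that holds the elongation factor P-TEFb inactive, had 29.5 and 36.5 CPM in static and 6.21 and 3.24 CPM under low flow (7.01-fold lower, adjusted p = 0.00469). The row AL162581.1 carries the same counts as RN7SK in all 4 libraries. Whether the libraries kept RNAs without tails to the same degree was not tested. Among small nucleolar RNA host genes, which do make poly(A) transcripts, 4 of 26 fell (SNHG5, ZFAS1, SNHG6 and SNHG17, 1.30-fold to 1.56-fold) and 0 rose. Of 15 alternative settings SNHG17 passed in 6, SNORD45B in 8, SNORA21 in 9, SNORA33 and SNHG6 in 12 and ZFAS1 in 13. SNORA65 passed in 11 of the 14 in which it was tested.

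Gene lists by function are described by how many members passed, beside the shares of all genes, 3.25% higher and 3.49% lower. Those shares grew with level. They were 0.35% higher and 0.68% lower under 1 CPM, and 5.34% and 7.12% at 100 CPM or more. Protein-coding genes had 3.98% higher and 4.30% lower. The lists were not matched for level, so the shares of all genes are a low mark for lists of well-expressed genes. The lists were chosen with earlier results of these data known, so their shares are a description. Of 45 lists, 13 had a mean log2 level above both static libraries in both low flow libraries, and 17 had one below in both.

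**Figure D3:**
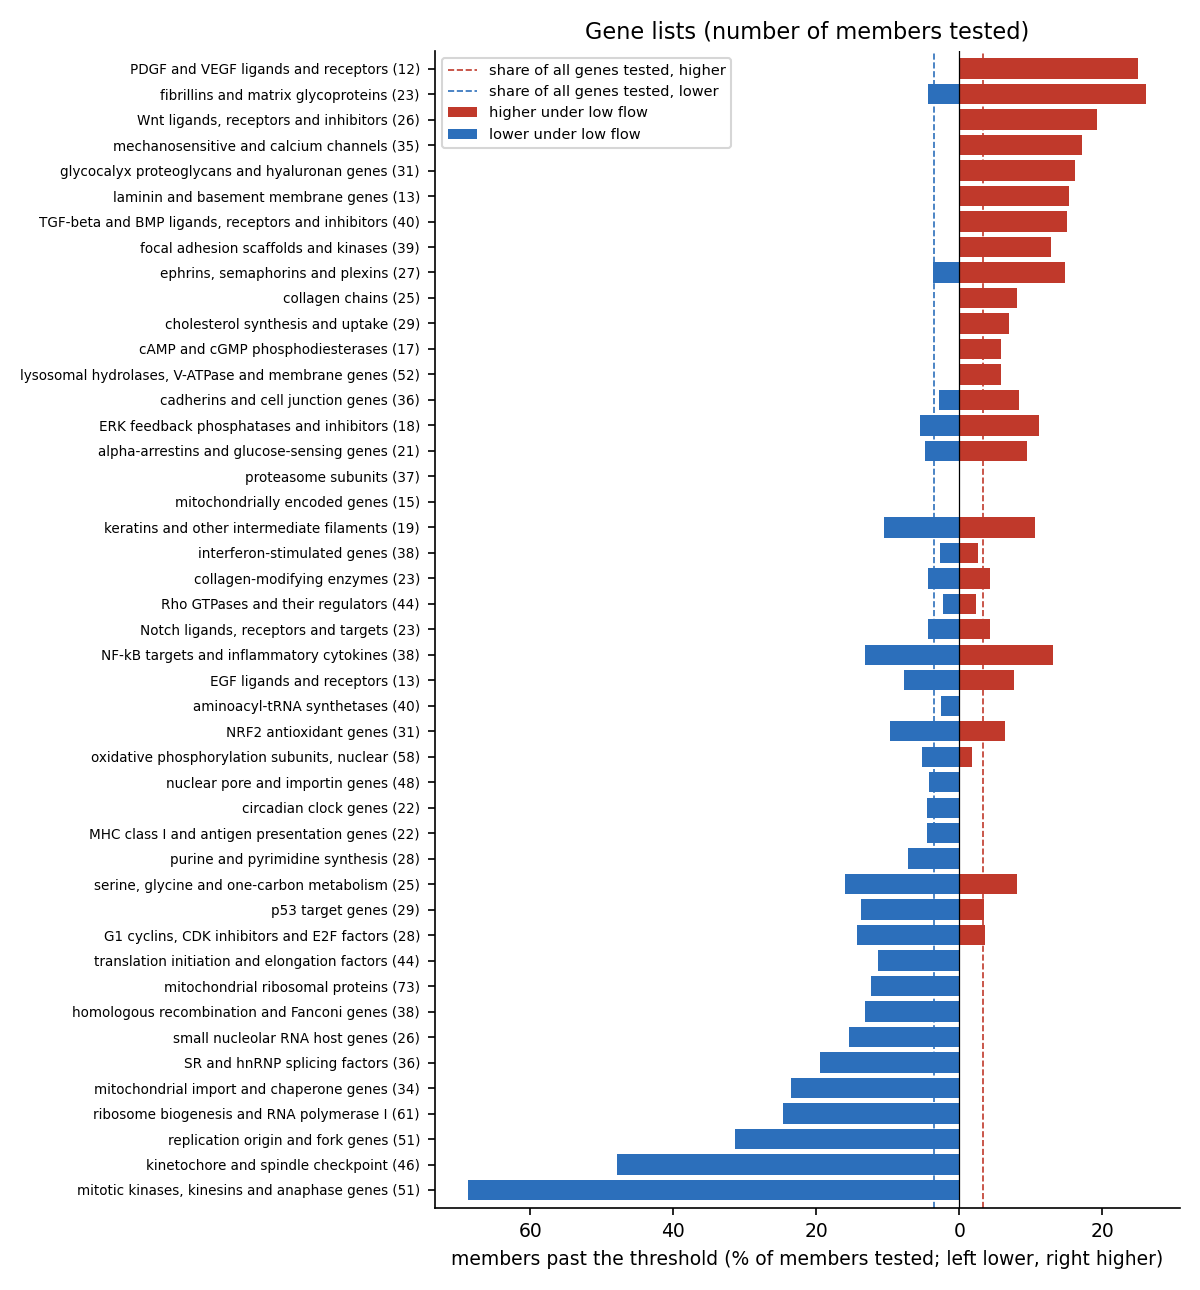
For each of 45 lists, with the number of members tested in brackets, bars give the percentage of members that passed as higher (right, red) or lower (left, blue), and dashed lines the shares over all genes, 3.25% and 3.49%. The mitotic list reaches farthest to the left with 35 of 51 members and proteasome subunits and mitochondrially encoded genes have 0 of 37 and 0 of 15.

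Genes that run mitosis had the largest share of lower members among the 45 lists. Of 51 tested mitotic kinases, kinesins and anaphase genes, 35 fell and 0 rose, and 50 lay below 0, with a median log2 fold change of -0.44. PTTG1, or securin, an inhibitor of sister chromatid separation, stood at 105 and 95.5 CPM and fell to 65.2 and 63.2 CPM (adjusted p = 0.00128, edgeR). UBE2S and UBE2C, the ubiquitin-conjugating enzymes of the anaphase-promoting complex, fell 1.72-fold and 1.65-fold, its activator CDC20 1.57-fold and CKS2, a cyclin-dependent kinase subunit, 1.52-fold. The kinase PLK1 (log2 fold change -0.55) and the transcription factor FOXM1 (-0.44) fell as well. CCNB1, the mitotic cyclin, had 110 and 92.7 CPM in static and 82.6 and 83.9 CPM under low flow and did not pass (adjusted p = 0.109), nor did the proliferation marker MKI67 (log2 fold change -0.44).

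Of 46 kinetochore and spindle checkpoint genes, which tie chromosomes to the spindle, 22 fell and 0 rose, and all 46 lay below 0 (median -0.39). SKA3, of the complex that keeps kinetochores on microtubule ends, had 30.7 and 31.6 CPM in static and 20.9 and 16.1 CPM under low flow (log2 fold change -0.75, SE 0.13, adjusted p = 0.0039, edgeR). The checkpoint kinase BUB1B fell 1.54-fold from 82.5 and 86.3 CPM, and the Ndc80 complex subunits NUF2 and SPC24 both fell 1.52-fold.

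DNA replication genes had 16 of 51 members lower and 0 higher, with a median of -0.29. DBF4, which activates the CDC7 kinase at origins, went from 28.4 and 32.4 CPM to 19.3 and 16.7 CPM (1.69-fold, adjusted p = 0.00246, edgeR), and MCM10, a factor that helps activate the loaded replicative helicase, from 80.1 and 96.5 CPM to 66.2 and 49.7 CPM. The clamp loader subunits RFC1 and RFC2 fell 1.37-fold and 1.35-fold. Of 38 homologous recombination and Fanconi genes 5 fell, among them RAD54B (1.63-fold) and EXO1 (1.48-fold), and 0 rose. Of 28 G1 genes 4 fell and 1 rose. CDKN1C, the inhibitor p57, fell 1.74-fold, CCNE1 1.45-fold and SKP2, which targets cell cycle inhibitors for breakdown, 1.36-fold, while RBL2, the pocket protein p130 of resting cells, rose 1.40-fold. CDKN1A, the inhibitor p21, had a log2 fold change of 0.19 (adjusted p = 0.276) and MYC, a driver of growth, fell from 52.0 and 50.8 CPM to 42.6 and 35.3 CPM (1.32-fold, adjusted p = 0.0383).

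The cell division counts changed with the libraries in the fit, and each library left out also took 1 of 3 residual degrees of freedom. In mean level both low flow libraries lay below both static libraries in these lists. For low flow replicates 1 and 2 the mitotic list lay at -0.36 and -0.50 log2 from the static mean. The kinetochore list lay at -0.30 and -0.46 and the replication list at -0.21 and -0.40. Without static replicate 2 the mitotic list had 7 lower members, the kinetochore list 0 and the replication list 0, and without low flow replicate 2 they had 11, 4 and 1. Leaving out static replicate 1 gave 19, 12 and 8, leaving out low flow replicate 1 gave 39, 28 and 26, and leaving out the high flow libraries in turn gave 24, 16 and 2 and then 22, 15 and 2. Without low flow replicate 2 the call of MYC ended, as it did without either static library or either high flow library.

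**Figure D4:**
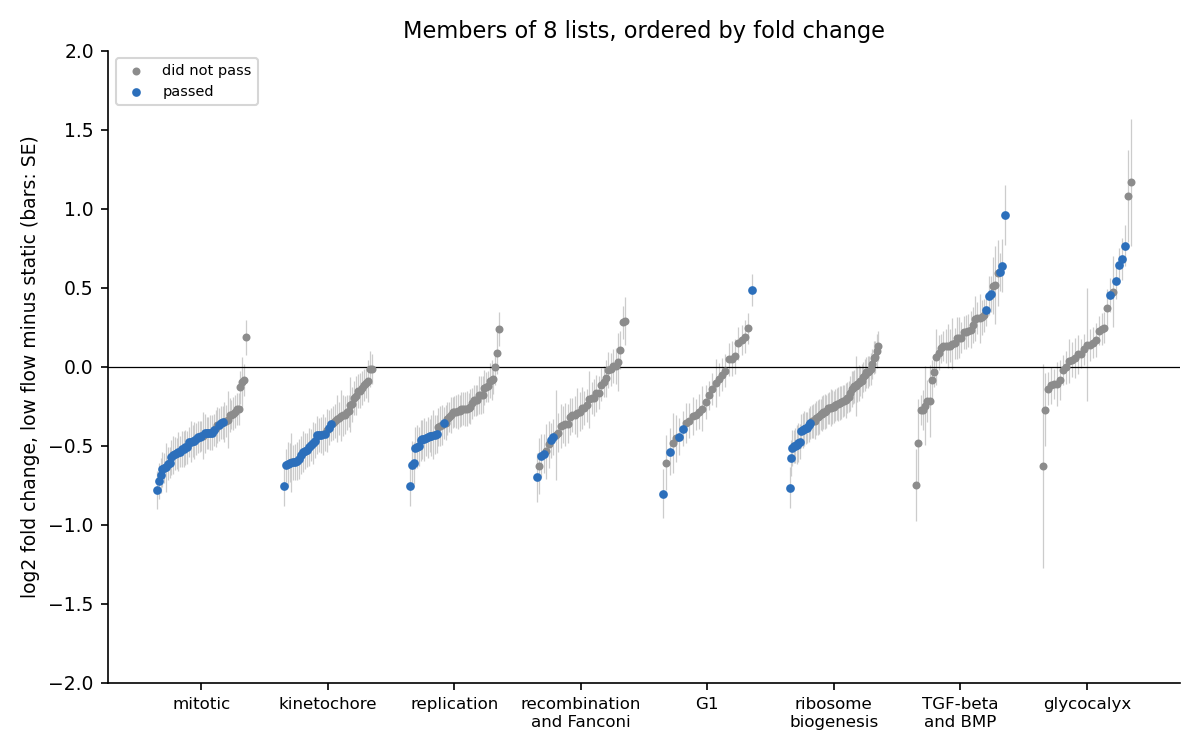
Each point is 1 tested member of 8 lists, ordered within its list by log2 fold change (vertical axis, bars are SE), and blue points passed. In the kinetochore list all 46 points lie below 0 and in the mitotic list 50 of 51 do, while the TGF-beta and BMP list has 31 of 40 above 0.

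Promoter sequences were looked at because the division genes moved together. The letters TTTGAA (searched on both strands) are the core of the CHR element and CCAAT (both strands) is the box bound by NF-Y, both known in promoters of genes expressed in G2 and mitosis. Of 20676 genes tested, 8584 had a single start in the RefSeq promoter table, which covers 250 bases before to 50 bases after the start. TTTGAA was in 75.0% of the 36 mitotic and 51.6% of the 31 kinetochore promoters, but in 3.03% of the 33 replication promoters. All tested genes had it in 9.91%, the 387 lower genes with a promoter in 18.3% and the 304 higher genes in 9.21%. CCAAT was in 83.3% of mitotic, 64.5% of kinetochore and 57.6% of replication promoters, against 37.5% of all tested, 46.5% of lower and 35.9% of higher genes. The lists were chosen for cell cycle roles, so the shares describe the lists and not an effect of flow. The 5 promoters below, GRCh38.p14, run from 150 bases before to 30 after the start on the gene's strand, and capitals mark TTTGAA and CCAAT on either strand.
CKS2, chr9:89311045-89311224, plus strand: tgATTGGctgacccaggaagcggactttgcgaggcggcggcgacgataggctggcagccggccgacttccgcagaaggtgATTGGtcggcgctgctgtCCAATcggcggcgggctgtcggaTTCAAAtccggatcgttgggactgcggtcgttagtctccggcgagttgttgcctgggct
BUB1B, chr15:40160919-40161098, plus strand: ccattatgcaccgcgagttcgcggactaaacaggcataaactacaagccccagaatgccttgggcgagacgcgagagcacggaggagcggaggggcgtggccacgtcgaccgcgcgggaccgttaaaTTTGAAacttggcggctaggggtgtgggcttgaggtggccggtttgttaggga
SKA3, chr13:21176523-21176702, minus strand: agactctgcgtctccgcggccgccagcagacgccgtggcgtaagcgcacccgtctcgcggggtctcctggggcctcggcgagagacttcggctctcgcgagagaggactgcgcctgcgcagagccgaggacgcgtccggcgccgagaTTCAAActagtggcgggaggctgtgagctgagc
NUF2, chr1:163321804-163321983, plus strand: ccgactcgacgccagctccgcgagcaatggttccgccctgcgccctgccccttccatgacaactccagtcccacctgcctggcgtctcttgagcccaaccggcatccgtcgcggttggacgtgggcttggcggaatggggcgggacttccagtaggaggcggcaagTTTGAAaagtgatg
MCM10, chr10:13161408-13161587, plus strand: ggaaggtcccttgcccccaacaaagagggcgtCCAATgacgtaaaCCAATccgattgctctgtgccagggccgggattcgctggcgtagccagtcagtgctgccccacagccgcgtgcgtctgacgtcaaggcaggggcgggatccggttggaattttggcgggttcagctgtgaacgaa

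In CKS2 the TTTGAA match, on the minus strand, begins 29 bases before the start and 3 CCAAT matches, 2 of them on the other strand, lie upstream of it, at 148, 70 and 52 bases before. In BUB1B the TTTGAA lies 23 bases before, in SKA3 3 bases before and in NUF2 16 bases after the start. MCM10, a replication gene that also fell, shows no TTTGAA in this window and has CCAAT at 118 and 105 bases before. A match is a run of letters and no measured site.

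Of 61 ribosome biogenesis and RNA polymerase I genes 15 fell and 0 rose, and 56 lay below 0 (median -0.25). LYAR, a nucleolar factor of ribosomal RNA processing, had 108 and 122 CPM in static and 77.8 and 57.4 CPM under low flow (1.70-fold, adjusted p = 0.00636, edgeR). EBNA1BP2 fell 1.49-fold, DKC1, which makes pseudouridine with the H/ACA small nucleolar RNAs, 1.42-fold, and NPM1, an abundant nucleolar protein, 1.41-fold. The letters CACGTG (the same on both strands), the E-box bound by MYC, were in 44.4% of the 36 searched promoters of this list and in 9.86% of all tested genes. They were in 11.6% of lower and 8.22% of higher genes. Lysosomal genes, with 3 of 52 higher and 0 lower, had them in 37.0% of 27 promoters. The share describes the list and not an effect of flow, and a part of MYC was not tested.

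Splicing factors had 7 of 36 lower, including HNRNPDL (1.45-fold) and the kinases CLK1 and CLK3 (1.43-fold and 1.38-fold), and translation factors 5 of 44, including EIF2S2 and EIF5B. Both lists had 0 higher. Aminoacyl-tRNA synthetases had 1 of 40 lower (GARS1, 1.40-fold), nuclear pore genes 2 of 48 (NUP62 and KPNA2) and the proteasome 0 of 37 in either direction. Without static replicate 2 the ribosome biogenesis and splicing counts were 0 and 0, and without low flow replicate 2 they were 1 and 0. Without low flow replicate 1 they were 27 and 10, without static replicate 1 10 and 5, and without either high flow library 5 and 4.

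Nuclear genes of mitochondria were lower mainly in the import and ribosome lists. Of 34 import and chaperone genes 8 fell, among them HSPE1, the partner of the HSP60 chaperonin, at 144 and 136 CPM in static against 108 and 100.0 CPM (1.35-fold, adjusted p = 0.0149, edgeR), TOMM5 and TOMM34. Of 73 mitochondrial ribosomal proteins 9 fell, with MRPL17 and MRPS15 both 1.45-fold lower. Nuclear oxidative phosphorylation subunits had 3 of 58 lower (UQCRB, SDHB and NDUFS6) and 1 higher (SDHC, 1.30-fold), near the shares of all genes, and the calls of NDUFS6 and SDHC ended with offsets for length and GC content. The 15 mitochondrially encoded genes had 0 that passed, and their mean log2 level lay 0.28 below and 0.28 above the static mean in the 2 static libraries, 0.16 above it in low flow replicate 1 and 0.36 below it in replicate 2. That list holds no tRNA genes. MT-TI, the mitochondrial tRNA gene for isoleucine and a core gene, rose from 15.9 and 12.8 CPM to 32.5 and 31.7 CPM (2.24-fold, adjusted p = 5.31e-05, edgeR). In one-carbon metabolism TYMS, the thymidylate synthase, and GCSH fell 1.41-fold and 1.47-fold and AMT, of the glycine cleavage system, rose 1.51-fold, in a list with 4 of 25 lower and 2 higher. Without static replicate 2 the import and mitochondrial ribosomal counts were 0 and 0, without low flow replicate 2 also 0 and 0, and without static replicate 1 they were 1 and 3. Without either high flow library they were 1 and 6.

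Growth factor and guidance ligands were among the genes that rose. PDGFB, the platelet-derived growth factor B chain, which acts on pericytes, fibroblasts and osteoblast precursors, had 0.937 and 0.913 CPM in static and 3.42 and 5.84 CPM under low flow. This was 5.01-fold higher (adjusted p = 0.00138, log2 fold change 2.32, SE 0.31, edgeR), and its call ended without static replicate 2. PGF, placental growth factor, rose from 22.8 and 16.9 CPM to 32.3 and 33.2 CPM (1.66-fold) and PDGFC 1.34-fold, 3 of 12 in the PDGF and VEGF list with 0 lower. VEGFA had a log2 fold change of 0.25 and did not pass. EDN1, the vasoconstrictor endothelin, had 6.17 and 5.61 CPM in static and 12.2 and 7.73 CPM under low flow (1.70-fold, adjusted p = 0.0353). Of 13 EGF family genes the receptor ERBB3 rose 1.48-fold and the ligand AREG, amphiregulin, fell 1.65-fold.

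In the TGF-beta and BMP list 6 of 40 rose and 0 fell, with a median of 0.18. The ligands BMP2 and BMP4 rose 1.56-fold and 1.37-fold, LTBP1, which tethers latent TGF-beta to matrix, 1.51-fold, and the inhibitor SMAD7 from 42.0 and 43.7 CPM to 101 and 65.5 CPM (1.94-fold, adjusted p = 0.0287, edgeR). The receptors ACVR1 and BMPR2 also rose (log2 fold changes 0.45 and 0.36). By contrast ID2, a BMP-responsive gene outside this list, fell from 35.1 and 42.4 CPM to 18.4 and 11.2 CPM (2.63-fold, adjusted p = 0.0131, edgeR). Wnt genes had 5 of 26 higher and 0 lower. WNT9A had 3.36 and 4.17 CPM in static and 7.84 and 8.46 CPM under low flow (2.15-fold, adjusted p = 0.00253), WNT7B and WNT5A rose 1.40-fold and 1.37-fold, and AXIN2, a target and inhibitor of the Wnt pathway, 1.55-fold. Of 27 ephrin, semaphorin and plexin genes 4 rose, the receptors PLXNB1 (1.88-fold) and PLXND1 (1.44-fold) and the ligands SEMA3B (1.77-fold) and SEMA3C (1.33-fold), while SEMA7A fell 1.39-fold. PTHLH, parathyroid hormone-related protein, which drives bone resorption, had 5.35 and 6.17 CPM in static and 8.74 and 7.94 CPM under low flow and did not pass (adjusted p = 0.0868).

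Of 35 calcium and mechanosensitive channel genes 6 rose and 0 fell. ORAI3 and ORAI2, pores of store-operated calcium entry, rose 1.77-fold and 1.31-fold, with ORAI3 at 14.0 and 11.7 CPM in static and 18.5 and 26.8 CPM under low flow (adjusted p = 0.0116, edgeR). TMEM63A, an ion channel opened by membrane stretch, rose 1.34-fold, KCNN4, a calcium-gated potassium channel, 1.37-fold, the calcium release channel ITPR3 1.30-fold and PKD1, or polycystin 1, 1.36-fold. PIEZO1, at 193 and 177 CPM in static and 193 and 204 CPM under low flow, did not pass (adjusted p = 0.572), and with the length and GC offsets its log2 fold change turned to -0.092.

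At the cell surface, 5 of 31 glycocalyx genes rose and 0 fell. The hyaluronan synthases HAS3 and HAS2 rose from 11.3 and 11.7 CPM to 17.6 and 21.6 CPM and from 19.5 and 21.0 CPM to 30.2 and 34.8 CPM (adjusted p = 0.00345 and 0.00765, edgeR). The chondroitin sulfate enzymes CHPF2 and CHST15 rose 1.56-fold and 1.45-fold. SDC2, a heparan sulfate proteoglycan, rose by a log2 fold change of 0.46. CD44, the hyaluronan receptor, stood at 922 to 1037 CPM in the 4 libraries and did not pass (adjusted p = 0.992).

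Of 23 fibrillins and matrix glycoproteins 6 rose and 1 fell. Besides FBN2 and SNED1, at 3.80-fold and 2.22-fold, they were FN1, fibronectin, with 1.85-fold, THBS3 (log2 fold change 0.68), FBN1 (1.37-fold) and TGFBI (1.37-fold), and EFEMP1, fibulin 3, fell 1.86-fold. The laminin chains LAMB2 and LAMA3 rose 1.45-fold and 1.35-fold, 2 of 13 in their list, and COL1A1 and COL4A5 rose 1.65-fold and 1.47-fold, 2 of 25 collagen chains. Of 39 focal adhesion genes 5 rose and 0 fell, among them NEDD9 (3.09-fold), the tensins TNS4 (1.71-fold) and TNS3 (1.47-fold) and TLN1 (talin 1, 1.35-fold). Of 36 junction genes DSC2, F11R and CTNNB1, the genes of desmocollin 2, JAM-A and beta-catenin, rose 1.79-fold, 1.49-fold and 1.35-fold, while CDH13, or T-cadherin, fell from 7.28 and 7.04 CPM to 4.15 and 2.99 CPM (2.01-fold, adjusted p = 0.00802, edgeR). CCN2, a matricellular target of YAP, had 265 and 250 CPM against 315 and 226 CPM, so the low flow libraries lay on both sides of static (adjusted p = 0.798).

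These matrix and signalling counts, too, depended on the libraries. Without static replicate 2 the TGF-beta and BMP, channel, glycocalyx and focal adhesion lists each had 0 higher members, the matrix glycoproteins 1 and the Wnt list 1. Without low flow replicate 2 the counts were 1, 0, 3, 1, 5 and 1 in that order, and without static replicate 1 they were 1, 1, 3, 2, 3 and 2. Without low flow replicate 1 they were 11, 8, 9, 7, 8 and 6, and without either high flow library 3, 3, 5, 2, 5 and 1. With offsets for transcript length and GC content the calls of BMP2, SMAD7, WNT5A, FN1, LAMA3, TLN1, ORAI2, ITPR3 and PKD1 ended, the last 3 being 3 of the 6 channel calls. EDN1 passed in 9 of 15 alternative settings, with its call lost without either static library, and EFEMP1 in 5 of 15.

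**Figure D5:**
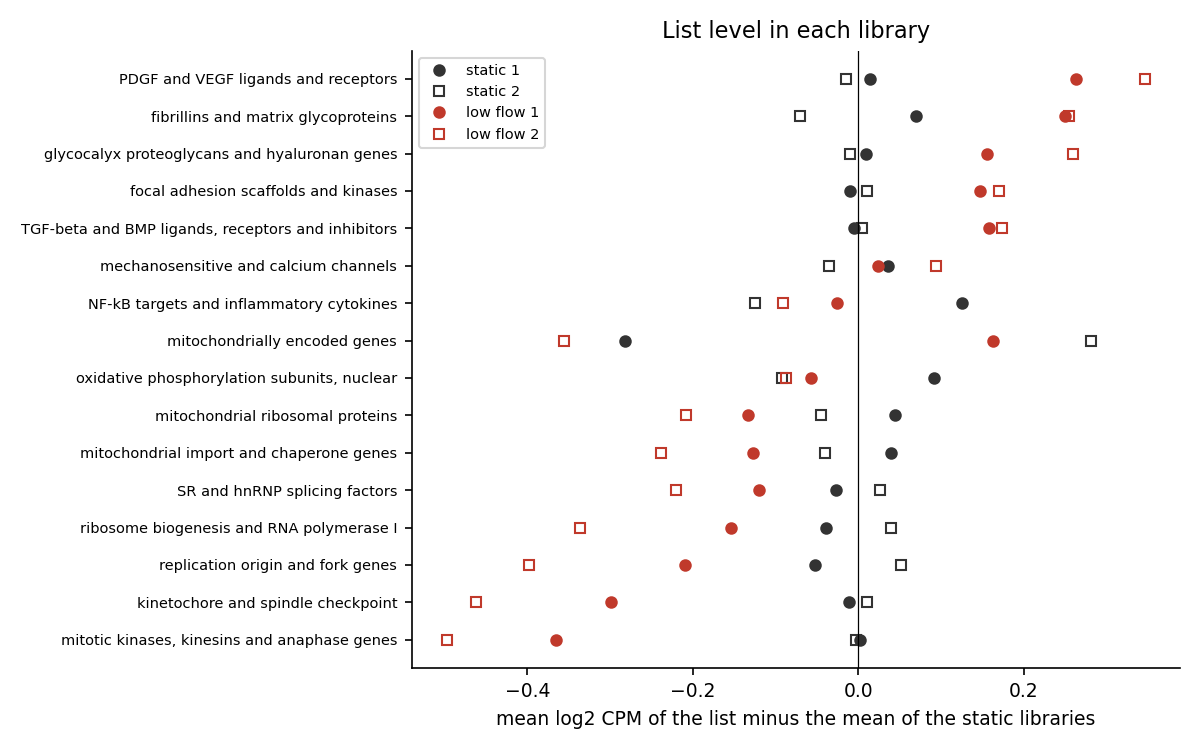
The mean log2 CPM of 16 lists in each library is drawn as a difference from the mean of the static pair (horizontal axis, log2). Low flow replicate 2 (open red) lies beyond replicate 1 (filled red) in the division and RNA lists, and the mitochondrially encoded genes have 1 library of each group on either side of 0.

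Inflammatory and stress genes moved both ways. Of 38 NF-kB targets and cytokines 5 rose and 5 fell. PTGS2, the inducible cyclooxygenase that makes prostaglandins, IL1B, BCL3 and IRF1 rose 1.89-fold, 1.48-fold, 1.71-fold and 1.46-fold, and CSF3 also rose. The chemokine CCL5 fell 4.07-fold at under 1 CPM, from 0.717 and 0.695 CPM to 0.176 and 0.166 CPM, and NFKB1, NFKBIB, NFKBIE and BIRC3 fell. CCL5 passed in 7 of the 13 alternative settings in which it was tested. Leaving out a static library left 5 rises and 1 fall (replicate 1) or 1 rise and 0 falls (replicate 2). Leaving out a low flow library left 6 of each (replicate 1) or 2 rises and 0 falls (replicate 2). Leaving out the high flow libraries in turn gave 4 rises with 3 falls and then 4 with 1. Of 29 p53 target genes BTG2, BBC3 and GADD45A were among 4 that fell, by 2.08-fold, 1.69-fold and 1.56-fold, and TP53INP1 rose 1.83-fold. In the NRF2 list AKR1C3 and AKR1C1, aldo-keto reductases of nearly identical sequence whose reads may be mixed, rose 1.78-fold and 1.75-fold and GPX4 and PGD fell, 2 higher and 3 lower of 31. CD274, the checkpoint ligand PD-L1, fell from 21.5 CPM in both static libraries to 16.5 and 13.3 CPM (1.44-fold, adjusted p = 0.022, edgeR). Interferon-stimulated genes had 1 of 38 higher and 1 lower, and PER1 was the 1 of 22 clock genes that passed, 1.28-fold lower. Of 15 alternative settings CD274, AKR1C1 and GPX4 passed in 9, PER1 in 8 and PGD in 7. TXNIP, which restrains glucose uptake, had 433 and 368 CPM against 361 and 576 CPM and did not pass (adjusted p = 0.593), while DDIT4, an inhibitor of mTORC1, fell from 540 and 556 CPM to 318 and 265 CPM (adjusted p = 0.000116).

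The libraries at 15 mL/min give another level of the same genes, in another lane, so flow rate and lane cannot be told apart. High against low flow, which shares the low flow libraries, had 69 genes that passed (0.334%), 50 higher (0.242%) and 19 lower (0.0919%). PDGFB, EDN1 and COL1A1 were higher still at high flow, with means of 14.3, 21.8 and 41.5 CPM (adjusted p = 0.00387, 0.00938 and 0.00111, edgeR). MYC, lower under low flow, stood at 64.3 CPM there (adjusted p = 0.00427), and CCN2 at 538 CPM (adjusted p = 0.00444). For BMF, RIPK4, CYP1B1, TIPARP, HMGB2 and SNORD14E the high flow means were 96.0, 56.7, 261, 367, 159 and 0.766 CPM, and none passed against low flow (adjusted p = 0.639 to 0.996).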

How the data were processed

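The authors deposited raw counts per gene, 60591 rows with 1 column per library. STAR, featureCounts and hg38 are named in the submitters' processing notes, with no settings or annotation. The libraries were stranded and made from poly(A) RNA, per the labels' protocols. Gene types and positions came from GENCODE 29 on GRCh38, counted from 1, in which 55101 rows matched by symbol and 1400 more through a gene ID.

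Differences were tested by edgeR 4.0.16 (R 4.3.3) with its quasi-likelihood F-test (TMM factors, robust dispersion, filter at a minimum count of 10) on all 6 libraries with 3 residual degrees of freedom. The test was two-sided with Benjamini-Hochberg adjustment over 20676 genes. SE values of log2 fold changes come from the test statistic. On simulated counts for low flow against static with 200 changed genes among 20676, the fit recovered 68.3% of 1.5-fold, 85.0% of 2-fold and 94.8% of 3-fold changes and called 26 unchanged genes. Beside at most 200 true calls, 26 false ones are a larger share than the threshold of 0.05. In that simulation the adjusted p was thus too lenient. It also held fewer changed genes than the 1394 that passed in the data. Alternatives were RLE factors, 2 other filters, only the 4 libraries compared, thinned counts, a replicate block, length and GC offsets with and without the block, each library left out and DESeq2 1.42.0.

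The gene lists, named genes and markers were chosen with earlier results of these data known. The rule for naming took the 12 largest and 12 smallest log2 fold changes that passed at a mean of at least 4 CPM without overlap (clone and LOC names and symbols outside the gene table left out), up to 4 members of each list by p, and PDGFB, EDN1, PTHLH, CCN2, NEDD9, PIEZO1, DDIT4, TXNIP, CDKN1A and MYC, and not all of these appear in the text. Any other gene was named after its values were seen. Chi-square per degree of freedom between replicates was 17.5 for static and 33.2 for low flow, so no library was a copy of another.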

Additional observations from a re-analysis of the deposited data

How the results depend on the processing

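With 2 libraries a group, counts of changed genes depended strongly on which libraries were in the fit. Each library left out also took 1 of 3 residual degrees of freedom. The 672 higher and 722 lower genes became 264 and 337 with only the 4 libraries compared, and 1327 genes were higher without an expression filter, when 58.7% of calls were higher against 48.2%. Leaving out 1 library gave 39 to 1509 higher and 46 to 1493 lower genes, the fewest without static replicate 2 and the most without low flow replicate 1. RLE factors, thinned counts, a filter at 1 CPM, DESeq2 and the length and GC offsets stayed within 1.5 times of both counts, and no gene that passed was called in the opposite direction in any of the 15 settings. Deviations of same-numbered static and low flow libraries had r = -0.14. For static and high flow it was -0.051, and for low and high flow 0.14. A single difference per group cannot decide whether same-numbered libraries belong together, and the labels do not say. With a replicate block 411 genes were higher and 496 lower, and 428 and 624 with the block and the offsets together. Of 206 genes chosen for naming that passed, 173 still passed with the block, 149 with only the 4 libraries compared, 115 without static replicate 1, 49 without static replicate 2, 201 when low flow replicate 1 was left out and 89 when low flow replicate 2 was. Of genes that had not passed, the log2 fold change turned for PIEZO1 with the length and GC offsets (-0.092, and -0.092 with the block added). With single libraries left out it ran from -0.19 to 0.29 for CCN2, turned by leaving out low flow replicate 1, from -0.15 to 0.52 for TXNIP, turned by leaving out low flow replicate 2, and from -0.17 to 0.013 for AHRR, turned by leaving out static replicate 1. The cause was not tested in any of these cases. Static depth, 17822642 and 23544307 counts, limits genes under 1 CPM.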
